A study of Mus musculus with 28 samples.

Results

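The response of the wild-type mouse brain to a nicotine-induced seizure was measured in 9 C57BL/6J mice, chosen by their labels out of 28 in the series: 3 wild-type mice killed 1 hour after a seizure that injected nicotine brought on, and 6 wild-type mice that received no nicotine. Whole-brain RNA of each mouse was hybridised to its own Affymetrix U74Av2 array. The seized mice were 7, 8 and 7 weeks old (female, female and male). Untreated mice 1 to 3 were 6 weeks old (male, female and male), and untreated mice 4 to 6 were 9, 8 and 7 weeks old (male, female and female), so no seized mouse was as young as the untreated mice 1 to 3. Seized mouse 1 and untreated mice 1 to 3 have titles that begin with LT, and the other 5 have titles that begin with B4, a prefix whose meaning the labels do not give. The other 19 mice, which enter here through the shared estimate of spread and as a comparison, were alpha7 +/T mice, with 1 altered copy of the alpha7 receptor subunit (5 untreated, 5 seized), and beta4 null mice, which lack the beta4 subunit (5 untreated, 4 seized). The untreated alpha7 +/T mice were 6, 6, 6, 6 and 8 weeks old, and all 5 seized ones were 8 weeks old. The beta4 null mice were 6, 9, 7, 8 and 8 weeks old when untreated and 8, 8, 8 and 7 when seized. Each genotype received a dose meant to give seizures of the same severity, in amounts that the labels leave out. No group among the samples was injected and spared a seizure, so nicotine, injection and seizure cannot be told apart as sources of a difference, and whole brain averages over all regions and cell types.

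Nicotine opens the nicotinic acetylcholine receptors, cation channels on neurons, and high doses produce convulsions. Strong neuronal activity admits calcium and switches on kinases that act on transcription factors already present in the nucleus, such as CREB and serum response factor. These factors turn on immediate early genes within minutes and without new protein synthesis. Many of those genes encode further transcription factors of the FOS, JUN, EGR and NR4A families, and others encode enzymes and signalling inhibitors that act at the synapse or restrain the same kinases.

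All 9 arrays were scaled by the authors to one common level, and the signals used here are on that linear scale unless log2 is named. Their median signals lay between 43.6 and 49.8. Rank correlations between arrays were 0.961 to 0.965 among the seized mice and 0.941 to 0.961 among the untreated ones. The log2 ratio of the 3 prime over the 5 prime beta-actin control set, a sign of RNA quality and labelling, was 1.70 ± 0.054 (SD, n = 3) on the seized and 2.13 ± 0.20 (SD, n = 6) on the untreated arrays and did not overlap (exact permutation p = 0.0238, two-sided, the smallest that 84 assignments of the mice allow). The same ratio for Gapdh was 1.81 ± 0.17 and 2.06 ± 0.26 and overlapped (exact permutation p = 0.167). The beta-actin ratio was also fitted as a covariate over all probe sets, and the results of that fit are given below for only some genes. Its part in the differences was not tested further.

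In the wild-type brain 4 genes rose after the seizure, and no gene fell at the same threshold. They were Fosb, Atf3 and Nr4a1, which encode transcription factors of the early response to activity, and Wdr92, which encodes a WD repeat protein. Of 7350 probe sets tested, 4 (0.0544%) passed at an adjusted p under 0.05 (limma, Benjamini-Hochberg over all 7350), all of them higher, and 312 had an unadjusted p under 0.05, of which 183 were higher. With each array centred on its median, 100 of 247 were higher, so that balance turns with the scaling. Differences are given as the mean log2 signal of the 3 seized mice minus that of the 6 untreated mice, with the SE of the fit.

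Fosb encodes an AP-1 subunit of the FOS family. Its signal was 431, 369 and 259 in seized mice 1, 2 and 3, and between 94.3 and 154 (median 118) in the untreated mice. The lowest seized value stood above the highest untreated one. It rose 2.92-fold (log2 1.54 ± 0.26, SE, limma adjusted p = 0.015).

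Atf3, a stress-inducible factor of the ATF and CREB family, had signals of 132, 111 and 96.6 in the seized mice. In untreated mice it lay between 22.3 and 47.8 (median 36.2). The groups did not overlap, and the gene rose 3.22-fold (log2 1.69 ± 0.29, limma adjusted p = 0.015). Its untreated signals were weak: each lay below the median of its own array, and each seized signal lay above. The filter kept probe sets above that median on at least 3 arrays, which among wild-type mice were for Atf3 the seized ones alone. Atf3 was also called with no filter. A further Atf3 probe set stood at 1.67 ± 0.59, also without overlap, and did not pass.

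Nr4a1 encodes an orphan nuclear receptor. It gave 1071, 495 and 408 in the seized mice and lay between 169 and 303 (median 209) in the untreated mice. Seized mouse 1 was the highest by a wide margin, and all 3 seized mice exceeded every untreated one. The rise was 2.87-fold (log2 1.52 ± 0.27, limma adjusted p = 0.017), and it was not called when the wild-type arrays were fitted alone (adjusted p = 0.0783).

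Wdr92 had the strongest signal of the called genes, 1758, 2397 and 1934 in the seized mice. Untreated mice lay between 849.7 and 1184 (median 1018). Here seized mouse 2 was the highest and mouse 1 the lowest of the seized mice, with no overlap between groups. The gene rose 2.02-fold (log2 1.02 ± 0.20, limma adjusted p = 0.0447); its call ended in 8 of the 9 fits that left out 1 wild-type mouse, and also with median centring, with no filter, without the variance trend and with age or title prefix as a covariate.

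The calls rested on few mice. Leaving out seized mouse 1 or seized mouse 2 left 0 called, and leaving out untreated mouse 2 left Atf3 and Fosb. With the beta-actin ratio as a covariate all 4 stayed called, at log2 1.45 (Fosb), 1.62 (Atf3), 1.48 (Nr4a1) and 1.16 (Wdr92). Errfi1 (higher) and Dffa (lower) also passed in that fit. There 640 of 7350 probe sets had an unadjusted p under 0.05 (limma), against 312 without the covariate.

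**Figure D1:**
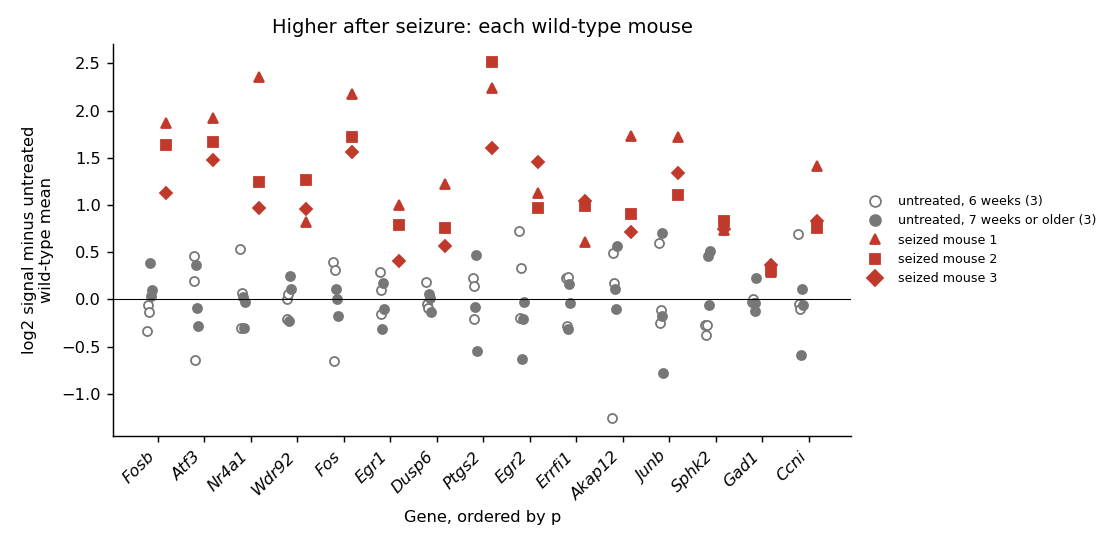
Each point is 1 wild-type mouse, as log2 signal minus the mean of the 6 untreated mice, for the 15 genes with the smallest p among those higher in all 3 seized mice. Grey circles are untreated mice (open, 6 weeks; filled, 7 weeks or older) and red symbols are seized mice 1 to 3; all red symbols of a gene lie above its grey ones, which is how the genes were chosen.

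The bases just before the start of the called genes and of Fos and Egr2 are shown because CREB and serum response factor act on promoters of this kind. No rule set the choice of Fos and Egr2. Other genes higher without overlap, such as Egr1, Junb, Ptgs2 and Dusp6, were not searched. Each is the 250 bases upstream of a RefSeq start (GRCm38.p6), 5′ to 3′ on the gene's strand, for 6 genes that had an entry. Klf10 and Akap12 had no entry. Capitals mark TGACG on either strand, the core of the cAMP response element that CREB recognises, and, in Egr2, also the CArG box, the core of the serum response element.
Fosb, chr7:19310046-19310295, minus strand: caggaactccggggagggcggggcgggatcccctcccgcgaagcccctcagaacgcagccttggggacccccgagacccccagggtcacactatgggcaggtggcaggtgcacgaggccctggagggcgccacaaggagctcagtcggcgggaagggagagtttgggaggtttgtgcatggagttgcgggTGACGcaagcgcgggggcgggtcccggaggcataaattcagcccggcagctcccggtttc
Atf3, chr1:191183334-191183583, minus strand: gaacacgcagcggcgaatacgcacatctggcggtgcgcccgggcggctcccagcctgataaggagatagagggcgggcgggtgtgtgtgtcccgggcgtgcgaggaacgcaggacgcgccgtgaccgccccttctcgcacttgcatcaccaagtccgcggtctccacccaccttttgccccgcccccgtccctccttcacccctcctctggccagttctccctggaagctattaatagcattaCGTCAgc
Nr4a1, chr15:101266596-101266845, plus strand: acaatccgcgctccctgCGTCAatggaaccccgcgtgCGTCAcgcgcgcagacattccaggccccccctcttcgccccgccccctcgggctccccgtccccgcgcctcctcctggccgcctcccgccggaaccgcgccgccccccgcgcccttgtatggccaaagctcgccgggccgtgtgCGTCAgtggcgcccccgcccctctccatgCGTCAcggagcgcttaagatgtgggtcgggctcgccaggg
Fos, chr12:85473640-85473889, plus strand: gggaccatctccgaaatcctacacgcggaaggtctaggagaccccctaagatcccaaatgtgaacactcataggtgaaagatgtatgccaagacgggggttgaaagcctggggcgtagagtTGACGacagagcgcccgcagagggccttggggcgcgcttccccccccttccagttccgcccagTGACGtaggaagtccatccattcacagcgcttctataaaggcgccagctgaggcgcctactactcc
Egr2, chr10:67537619-67537868, plus strand: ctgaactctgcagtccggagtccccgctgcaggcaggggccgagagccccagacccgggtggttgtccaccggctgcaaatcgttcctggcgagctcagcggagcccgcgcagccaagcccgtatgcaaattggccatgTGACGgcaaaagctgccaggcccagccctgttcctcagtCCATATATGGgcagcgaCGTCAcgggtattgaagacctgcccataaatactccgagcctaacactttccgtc
Wdr92, chr11:17211643-17211892, plus strand: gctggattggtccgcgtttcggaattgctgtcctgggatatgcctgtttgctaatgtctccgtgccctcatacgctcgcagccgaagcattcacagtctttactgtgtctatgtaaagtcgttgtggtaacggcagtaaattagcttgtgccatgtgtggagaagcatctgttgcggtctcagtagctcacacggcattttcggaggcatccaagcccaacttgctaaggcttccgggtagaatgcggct
Nr4a1 had 4 matches to TGACG, Fos 2, Egr2 2, Fosb 1 and Atf3 1, and Egr2 had 1 CArG box in the window shown. No match was found in the Wdr92 window. Of 32536 such windows in the mouse table, 17.9% held TGACG and 1.48% a CArG box. These shares are for single windows and do not allow for a choice among several. Egr2 has several annotated starts, and the window shown is 1 that held both motifs. The window nearest its first start held neither motif. Another Egr2 window, chr10:67537316-67537565, held a CArG box and no TGACG. Bases beyond the 250 were not searched, so a motif absent here may lie farther upstream. A match describes these letters and does not show that a factor binds there.

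Other early transcription factors stood higher in each seized mouse without passing the test. Fos, the partner of JUN proteins in AP-1, gave 1401, 1024 and 916 in the seized mice, and between 197 and 408 (median 322) in the untreated ones. The lowest seized value exceeded the highest untreated value by more than 2-fold (916 against 408), yet the difference of 1.82 ± 0.40 missed the threshold (limma adjusted p = 0.167) in the fit over all 28 arrays. Fitted on the 9 wild-type arrays alone, Fos passed (limma adjusted p = 0.00774).

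The zinc finger factors of the EGR family showed the same arrangement. Egr1 had signals of 1247, 1077 and 826 in seized mice, against 504 to 765 (median 626) in untreated mice, a difference of 0.73 ± 0.17 (limma adjusted p = 0.215). Egr2 had 246, 221 and 310.5, against 72.7 to 187 (median 105), a difference of 1.19 ± 0.30 (limma adjusted p = 0.361). Seized mouse 1 was highest for Egr1, and seized mouse 3 for Egr2.

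Junb, a JUN family partner of FOS proteins, gave 252, 165 and 194 in seized mice and lay between 44.6 and 125 (median 69.5) in the untreated mice, without overlap (difference 1.39 ± 0.36, limma adjusted p = 0.445). Its other probe set stood at 1.14 and overlapped. Jun itself had signals of 229.6, 165 and 146 against an untreated range of 148 to 211 (median 177), so that the groups overlapped (difference -0.01 ± 0.18). Klf10, a zinc finger factor, gave 217, 218 and 213 in seized mice, close together and above the untreated range of 139 to 179 (median 157), a difference of 0.47 ± 0.15; its other probe set stood at 0.27 and overlapped.

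Of 30 immediate early transcription factors listed, 23 were paired with a probe set and 19 passed the filter on low signal. Of these, 3 rose, 0 fell and 16 did not pass. The 3 seized values lay above all 6 untreated values for 9 of the 19 genes and below them for none. Of all 5599 genes tested, 2.55% lay above, 1.84% below and 4.39% on either side, and 0.0714% passed the test. Beside those described, the 9 included Btg2, an antiproliferative gene chosen for mention after its values were seen (difference 0.66 ± 0.27). The median difference of the 19 was 0.66, against 0.03 over all genes. It was 1.08 in seized mouse 1, 0.62 in mouse 2 and 0.40 in mouse 3. Fosl1, Klf2, Maff and Myc were below the filter. The list was chosen with earlier results of these arrays known, so its direction is not independent evidence.

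Genes that carry the early response out to the synapse stood on the same side. All 15 activity-regulated effector genes kept by the filter had differences above 0 (median 0.43), as had 3100 of all 5599 genes. Of the 15, 4 were higher without overlap (26.7%, against 2.55% of all genes), and 0 passed the test. Ptgs2, the inducible cyclooxygenase, had the largest positive difference of any gene, 2.12 ± 0.51 (limma adjusted p = 0.289), with weak signals of 63.9, 77.2 and 40.9 in seized and between 9.22 and 18.7 (median 13.8) in untreated mice. Gadd45b, a stress and growth arrest gene, gave 161, 194 and 156 in the seized mice, against 66.2 to 132 (median 107), and Plat, which encodes tissue plasminogen activator, gave 503, 666 and 501, against 328 to 443 (median 391). The differences were 0.79 and 0.51. Rgs2, a brake on G protein signalling, stood at 0.56 without overlap and the synaptic kinase Plk2 at 0.43 with overlap, both named after their values were seen.

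Feedback inhibitors of the MAP kinases divided. Dusp6, the phosphatase that removes phosphate from ERK, gave 488, 353 and 310 in seized mice, against 191 to 238 (median 206) in untreated mice, a difference of 0.85 ± 0.20 (limma adjusted p = 0.215). Errfi1, an inhibitor of the EGF receptor, gave 509, 662 and 685, against 269 to 394 (median 349), a difference of 0.88 ± 0.22 (limma adjusted p = 0.361), and seized mouse 1 was the lowest of the 3. Neither overlapped. The other Errfi1 probe set stood at 0.41 ± 0.46, also without overlap. With the beta-actin ratio as a covariate Errfi1 passed, and without it Errfi1 did not. Dusp1 had 1166, 516 and 486 against 332 to 805 (median 489): seized mouse 1 was far above the untreated range and the other two lay inside it. Of the 8 genes of the list, 4 were above 0 and 4 below (median 0.09), and 0 passed.

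Glucocorticoid-responsive genes, which follow the stress hormone as well as other stimuli, had a median difference of 0.43 over 19 genes, 14 above 0 and 5 below, and 0 passed the test. No overlap was seen for 5 of them, all higher (26.3%, against 2.55% of all genes): Errfi1, Per1, Nfkbia, Cdkn1a and Ddit4. The lists share members, so their counts are not separate. Errfi1 is also in the MAP kinase feedback list, Per1 in the circadian list and Nfkbia in the cytokine and NF-kB list. Per1, a clock gene that stress and light induce, gave 251, 183 and 224 in seized mice and lay between 115 and 178 (median 133) in untreated mice (difference 0.69 ± 0.36). Nfkbia, the inhibitor of NF-kB, gave 254, 329 and 373 and lay between 195 and 247 (median 211), a difference of 0.53 ± 0.22. Ddit4, a brake on mTOR named after its values were seen, stood at 0.52 ± 0.18. Sgk1, a kinase that glucocorticoids induce, was scattered among untreated mice (381 to 1335), and the seized values of 1042, 1482 and 1383 overlapped them. For this list the median was lowest in seized mouse 1 (0.31), then 0.44 in mouse 2 and 0.54 in mouse 3, the opposite order to the early transcription factors. That order rests on 3 mice and was not tested. Fkbp5 stood at -0.14, and no hormone was measured.

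Of 15 integrated stress response genes, which are translated or transcribed when protein synthesis is restrained, Atf3 was the 1 that rose. Differences were above 0 for 13 and below 0 for 2 of them (median 0.17). Of the 15, 3 were higher without overlap (20.0%, against 2.55% of all genes), Atf3 among them. Sars, a seryl-tRNA synthetase, gave 198, 201 and 207 against 97.8 to 183 (median 136) in untreated mice, without overlap (difference 0.56 ± 0.17). Ppp1r15a, a phosphatase subunit that restores translation, stood at 0.87 ± 0.30, also without overlap, and was named after its values were seen. Heat shock proteins and chaperones were evenly placed, with 10 of 20 above 0 and a median of 0.00. The groups did not overlap for 10.0% of these genes, against 4.39% of all genes. Hspa8, the constitutive HSC70, stood at 0.27 ± 0.16 without overlap, although its lowest seized and highest untreated signal were nearly equal. Hspa4l, of the same family, stood at -0.14 without overlap. Of 17 circadian genes 8 were above 0 and 9 below, and of 50 subunits of oxidative phosphorylation 26 were above 0 and 24 below. None of these 3 lists held a gene that passed.

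**Figure D2:**
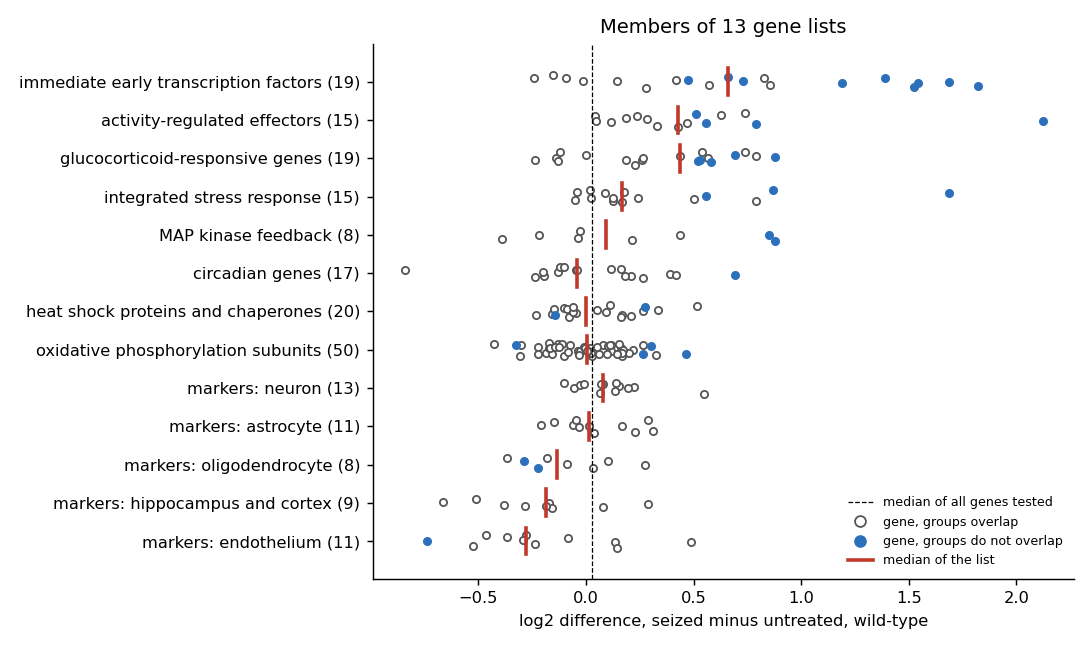
Each circle is 1 gene of a list, placed by its log2 difference between seized and untreated wild-type mice; filled circles are genes whose groups do not overlap, red bars are list medians and the dashed line is the median of all genes tested (0.03). The medians of the early transcription factors (0.66), glucocorticoid-responsive genes (0.43) and effectors (0.43) lie to the right, and that of the endothelial markers (-0.28) to the left.

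Beside these and Wdr92, 4 more genes belonged to the 15 with the smallest p among those higher without overlap. Akap12, a scaffold that anchors protein kinase A, gave 136, 76.5 and 67.1 in seized mice and lay between 17.1 and 60.8 (median 45.3) in untreated mice (difference 1.12 ± 0.29). Gad1, the enzyme that makes GABA, had strong and closely placed signals, 2157, 2197 and 2284 against 1622 to 2064 (median 1729), and a small difference of 0.32 ± 0.10. Sphk2, a sphingosine kinase, stood at 0.77 ± 0.22, and Ccni, cyclin I, at 1.00 ± 0.30. For both of these the gene's other measured probe set pointed the other way, at -0.30 and -0.21 with overlap. The limma adjusted p of the 4 lay between 0.445 and 0.747.

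No gene fell past the threshold, and the 15 genes with the smallest p among those lower without overlap had limma adjusted p of 0.499 or more. They are given as differences that did not pass. The largest of the 15, Tmem214, had weak signals of 16.2, 11.6 and 10.1 in seized mice, against 29.4 to 65.3 (median 47.3) in untreated mice (difference -1.93 ± 0.56); its other probe set stood at -0.24. Pax4, a homeobox factor known from pancreatic islets, gave 17.6, 19.4 and 31.8 against 46.6 to 71.3 (median 50), a difference of -1.31 ± 0.35. Nup54, a nuclear pore protein, gave 45, 25.5 and 37.7 against 54.3 to 117 (median 77.6), a difference of -1.17 ± 0.32.

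Several of the genes lower without overlap had strong signals and small differences. Glmp, a lysosomal membrane protein, gave 369, 407 and 373 in seized mice and lay between 491 and 628 (median 576) in untreated mice (difference -0.57 ± 0.16). Clk1, a kinase that phosphorylates splicing factors, gave 434, 492 and 451 and lay between 624 and 854 (median 689), a difference of -0.62 ± 0.20. Adcy9, an adenylyl cyclase, gave 238, 262 and 275 and lay between 313 and 344 (median 329), a difference of -0.35 ± 0.13. Pbrm1 (-0.73), a subunit of a chromatin remodelling complex, and Jarid2 (-0.50), a partner of Polycomb repressive complex, belonged to the same set, as did the corepressor Cbfa2t3 (-0.75), the lipid phosphatase Inppl1 (-0.68), the scaffold Mpdz (-0.51), the ubiquitin ligase receptor Dcaf1 (-0.42), Pnrc2 (-0.41) and Azi2 (-0.79). Other probe sets of Pbrm1 stood at 0.12 and -0.09, that of Cbfa2t3 at 0.18, that of Azi2 at -0.16 and that of Adcy9 at -0.20, all with overlap.

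**Figure D3:**
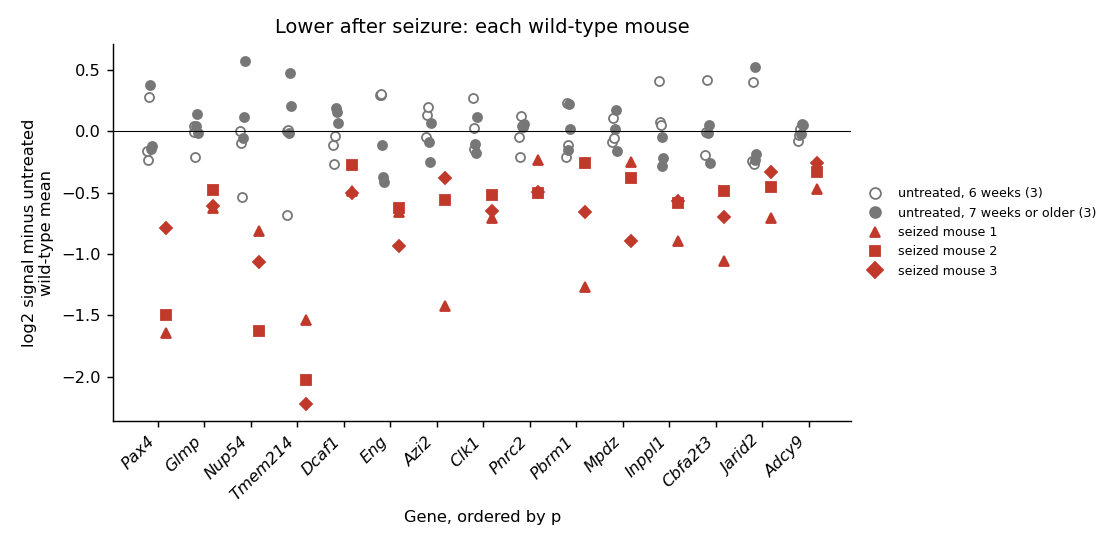
Each point is 1 wild-type mouse, as log2 signal minus the mean of the 6 untreated mice, for the 15 genes with the smallest p among those lower in all 3 seized mice; symbols are as for the higher genes. For Eng the open circles (6 weeks) lie above the filled ones (7 weeks or older), and the red symbols lie below both.

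Most endothelial markers stood below 0. Of 11 measured, 8 had differences below 0 and 3 above (median -0.28), and 0 passed the test. In bulk tissue, fewer cells of a type and less RNA per cell cannot be told apart. Their summed signal was 1243 to 1279 in seized and 1409 to 1900 in untreated mice, without overlap. Eng, an endothelial co-receptor for TGF-beta, carried that separation: without it the sums of the other 10 were 856 to 968 and 947 to 1166, which overlap. Eng itself gave 379, 386 and 311 in seized mice. It gave 734, 733 and 735 in the untreated mice of 6 weeks and 551, 461 and 449 in the older ones, so the age groups of untreated mice did not overlap either. Its difference was -0.74 ± 0.23 against all untreated mice and -0.44 ± 0.24 against those of 7 weeks or older, and -0.59 with the beta-actin ratio as a covariate. Vwf (-0.47), Sox17 (-0.53) and the other endothelial markers overlapped between groups. Another Sox17 probe set stood at -1.47 ± 0.65, also with overlap, and did not pass. Those above 0 were Kdr (0.49), Tie1 (0.14) and Flt1 (0.14).

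Markers of neurons, astrocytes and microglia lay near the median of all genes. Median differences were 0.08 over 13 neuron, 0.02 over 11 astrocyte and 0.04 over 10 microglia and macrophage markers, with no gene free of overlap and none that passed. The 8 oligodendrocyte markers had a median of -0.14 against all untreated mice and 0.15 against those of 7 weeks or older, so the sign turned with the age of the controls. Of these 8, Sox10 (-0.29) and Mobp (-0.22) were lower without overlap (2 of 8, against 1.84% of all genes), and 0 passed. Mal (0.28), Mbp (0.10) and Cldn11 (0.03) were above 0 with overlap. Other probe sets of Mobp stood at -0.30, 0.04 and -0.22, and that of Sox10 at -0.50, all with overlap. Summed neuron markers were 13864 to 14744 in seized and 12222 to 15341 in untreated mice. Markers of neurons and astrocytes had strong signals on every array, as the label of whole brain implies.

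Across the genome the response was small and nearly even in direction. With 1 probe set for each of 5599 genes, 3100 differences were above 0 and 2499 below, and the median was 0.03. The 5th and 95th percentiles were -0.40 and 0.47, and the median SE was 0.24. A mean difference of 2-fold or more was reached by 34 genes higher (0.607%) and 32 lower (0.572%). Groups did not overlap for 311 of 7350 probe sets (4.23%), 186 higher (2.53%) and 125 lower (1.7%). That split follows the scaling: after centring each array on its median it was 115 higher and 200 lower, and after quantile normalization 167 and 146.

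A larger mean difference makes overlap less likely by construction, so the classes of size are given as a description. Of 11 genes at least 1.5 higher on the log2 scale, 7 did not overlap between groups, and of 7 genes at least 1.5 lower, 1 did not. Between 1 and 1.5, it was 9 of 23 higher and 5 of 25 lower genes, and between 0.5 and 1 it was 38 of 202 and 25 of 142. Between 0.25 and 0.5 it was 74 of 700 and 57 of 467, and under 0.25 it was 15 of 2164 and 15 of 1858. The 7 were Ptgs2, Fos, Atf3, Fosb and Nr4a1, and 2 genes of weak signal, Krt20 (log2 1.70) and Cdca7l (1.58), both named after their values were seen. The 1 on the lower side was Tmem214. The median untreated signal of the genes at least 1.5 higher was 25.5, below the array medians, while the filter asked for a signal above the median on 3 arrays, so a gene of low untreated signal could pass through the arrays on which it was high. For higher genes with differences under 0.25 it was 163, so large mean differences were found mostly at weak signals.

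**Figure D4:**
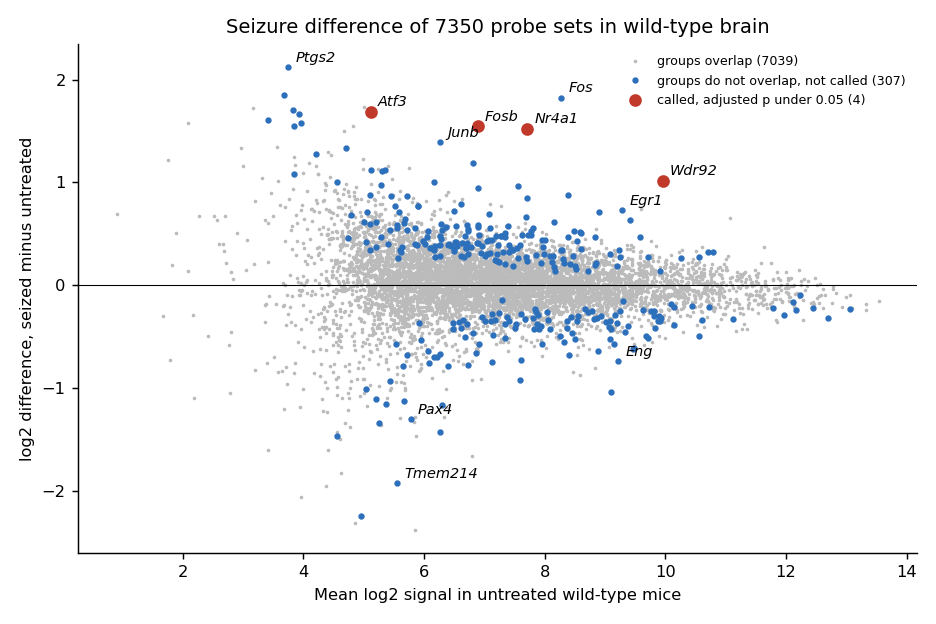
Each point is 1 of 7350 probe sets, with its mean log2 signal in the 6 untreated wild-type mice on the horizontal axis and its log2 difference after seizure on the vertical axis. Red points are the 4 called, blue points the 307 others whose groups do not overlap; the spread of differences is widest at weak signals, and Fos, Fosb, Nr4a1 and Wdr92 stand out among stronger ones.

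Mouse by mouse, the seized brains were no farther from the untreated mean than untreated brains were from each other. In seized mice 1, 2 and 3, 92, 55 and 65 genes were 2-fold or more above the untreated mean and 67, 81 and 78 below it. Set against the mean of the other 5, untreated mice had 45 to 166 genes above and 86 to 188 below. The SD of the log2 differences over genes was 0.378 to 0.400 in seized and 0.418 to 0.475 in untreated mice. The seized mice are set against a mean of 6 and the untreated against a mean of 5, which lowers the seized values slightly.

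The age of the untreated mice divided them more than the seizure divided the groups in some fits. Untreated mice of 6 weeks against those of 7 to 9 weeks gave 1 probe set called of 7350 (0.0136%), which is paired with no gene here, and 611 at an unadjusted p under 0.05, against 312 for the seizure. In the 9 wild-type arrays alone the age comparison called 101 probe sets higher and 15 lower, and the seizure comparison 4 in all. Title prefix divides the untreated mice in the same way, so age and prefix cannot be told apart there. Against the 3 untreated mice of 7 weeks or older, 0 probe sets passed for the seizure (265 at an unadjusted p under 0.05, limma), with 3 untreated mice in place of 6.

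Against the untreated mice of 7 weeks or older alone, Fosb stood at 1.37 ± 0.30, Atf3 at 1.69 ± 0.34, Nr4a1 at 1.62 ± 0.32, Wdr92 at 0.97 ± 0.23 and Fos at 1.84 ± 0.48, and the median of the 19 early transcription factors was 0.79. The differences of the 15 higher genes were 0.60 to 1.24 times, and those of the 15 lower genes 0.60 to 1.33 times, the ones against all 6 untreated mice. Their sign is fixed by the choice, since all 3 seized values lie beyond every untreated one, and says nothing about age. The smallest ratios were those of Sphk2 (0.46 against older mice) and Eng. Of 9 markers of hippocampus and cortex, 7 were below 0 with a median of -0.19, and the median was -0.02 against older mice. Nrgn, a calmodulin-binding protein of forebrain neurons, stood at -0.51 against all untreated mice and -0.02 against the older ones, and was higher by 0.98 in untreated mice of 6 weeks than in older ones (limma adjusted p = 0.305).

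The seizure differences of the other genotypes were not used to choose these genes, although their arrays entered the filter and the shared spread behind the p. Of the 15 higher genes, 14 were above 0 in alpha7 +/T mice, 11 in beta4 null mice and 11 in both. Of the 15 lower genes, 8, 12 and 6 were below 0. Over all 7350 probe sets, 26.7% had the wild-type sign in both. Of the 186 probe sets higher without overlap, 68 (36.6%) were above 0 in both, against 26.5% of all probe sets above 0 in wild-type mice, and of the 125 lower, 49 (39.2%) were below 0 in both, against 26.9%. Taken singly, 127 of the 186 were above 0 in alpha7 +/T mice (median 0.16) and 85 with the beta4 null genotype (median -0.02). Over all 7350 probe sets, 4162 and 3608 had the wild-type sign. Of the 125 lower, 92 and 72 were below 0 (medians -0.18 and -0.03), and 42 of the 186 and 10 of the 125 had the opposite sign in both, as had 1542 of all 7350. Untreated alpha7 +/T mice were mostly younger than the seized ones (6, 6, 6, 6 and 8 weeks against 8). In that genotype the seizure comparison called 126 probe sets higher and 80 lower, and 9 and 3 with age as a covariate (limma). The part of age in the shared signs was not tested. Fosb stood at 1.08 ± 0.23 (alpha7 +/T) and 0.97 ± 0.25 (beta4 null), Atf3 at 1.03 ± 0.26 and 0.84 ± 0.28, and Nr4a1 at 1.49 ± 0.25 and 1.47 ± 0.26. Wdr92 stood at 1.11 ± 0.18 and 0.37 ± 0.19. Median differences of the 15 higher genes were 1.12 in wild-type mice, 0.71 with the alpha7 +/T genotype and 0.81 with the beta4 null genotype, and those of the 15 lower genes were -0.68, -0.02 and -0.07. A median nearer 0 where the differences were not used for the choice is built into such a choice.

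Whether the wild-type response differed from that of the mutants was tested as the wild-type difference minus the mean of the mutant differences. No probe set passed (0 of 7350, 0.0%, limma; 267 at an unadjusted p under 0.05). For Pax4 this was -1.64 ± 0.42, for Akap12 1.04 ± 0.35, for Sphk2 0.97 ± 0.26 and for Ptgs2 1.32 ± 0.61 (limma adjusted p = 0.999 for each), so these did not pass, and for Nr4a1 it was 0.04 ± 0.33. The dose was set for each genotype, in amounts that the labels leave out. Of the 19 mutant arrays 9, and none of the wild-type arrays, had a Gapdh 3 prime over 5 prime log2 ratio under 0.5.

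**Figure D5:**
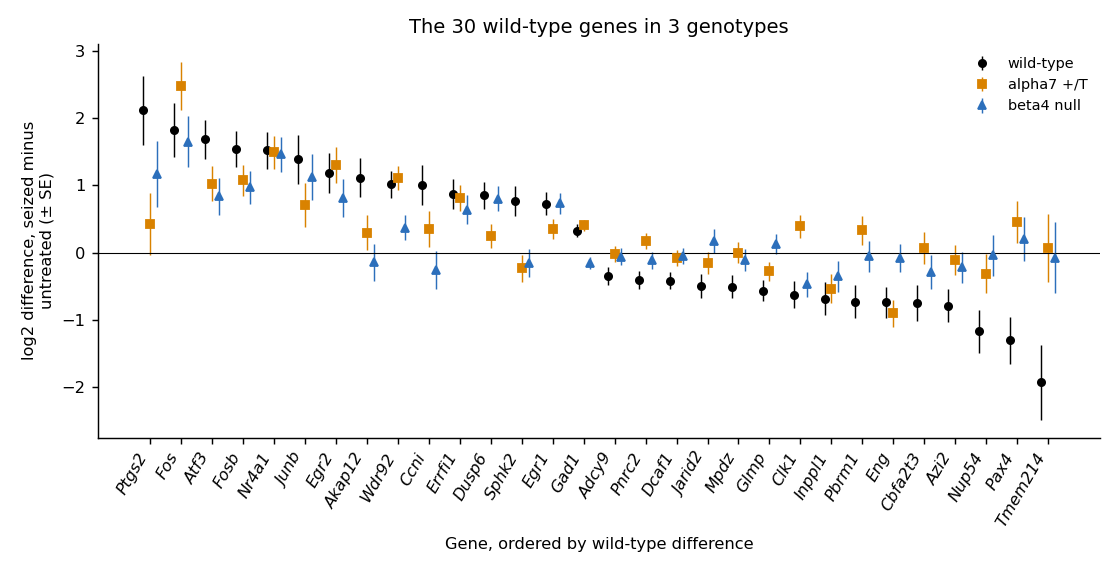
Points are the log2 difference between seized and untreated mice and bars its SE from the fit, for the 15 higher and 15 lower wild-type genes, in wild-type (black; 3 seized, 6 untreated), alpha7 +/T (orange; 5, 5) and beta4 null mice (blue; 4, 5). The genes were chosen by their wild-type values; Fos, Fosb, Nr4a1, Atf3 and Egr2 are above 0 in all 3 genotypes, and most of the lower genes lie near 0 in the others.

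The receptors that nicotine acts on were barely measured. Of 16 nicotinic subunits listed, 8 had a paired probe set and 3 passed the filter on low signal. Chrna7, the alpha7 subunit, gave 47.7, 56.3 and 71.5 in seized mice, inside the untreated range of 39.6 to 90.9 (median 63.7), a difference of -0.06 ± 0.45. Chrne and Chrng, known from muscle, stood at 0.21 ± 0.38 and -0.42 ± 0.53, with overlap. Of 13 genes of GABA synthesis, GABA receptors and chloride balance, Gad1 alone did not overlap (7.69%, against 4.39% of all genes), and 7 were above 0. Of 8 glutamate receptor genes 4 were above 0 and 4 below, and of 4 genes of the cytokine and NF-kB list 1 was above 0, namely Nfkbia; 0 of these genes passed.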

How the data were processed

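The deposited intensity values are linear MAS5 signals, 1 per probe set, per the submitters' processing notes, which name no version. On each array the mean without the lowest and highest 2% was 150. Values were taken as log2. No detection call was used. Precision is limited by the number of arrays. Signals over all arrays ran from 0.0251 to 19046.3.

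Of 12488 probe sets, 66 controls were left out; 10833 were paired with 1 gene, 396 with several and 1193 were not listed, and 10817 matched a mouse gene table (GRCm38.p6). Probe sets above their array's median in at least 3 arrays were kept (7350). Differences were tested with limma 3.58.1 (R 4.3.3; lmFit, trended eBayes) on 28 arrays in 6 groups, Benjamini-Hochberg adjusted, two-sided, at 0.05. Lists use 1 probe set per gene, the brightest.

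Genes were named as follows: every probe set called; up to 15 higher and 15 lower without overlap by p; up to 3 per list by p; a fixed set of early genes and receptor subunits; others are marked. The members and lists were chosen with earlier results of these data known. Replicates are separate mice. The fit was tested on simulated data. Alternatives were quantile normalization, median centring, 2 filters, a floor, no trend, array weights, the wild-type arrays alone, covariates (sex, age, prefix, array class), subsets by age or prefix, and each mouse left out; the beta-actin ratio and untreated mice of 6 weeks alone were added after seeing the data.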

Additional observations from a re-analysis of the deposited data

Results flagged for a closer look

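Among the 72 genes named by the rules or by hand, the 6 untreated wild-type values were checked for a mouse standing apart. The 3 seized mice were not checked in this way. Seizure differences were checked for opposite signs in all mice of different genotypes. Chance gives about 1 in 20 such sets of untreated values a mouse that stands apart. Untreated mouse 1 was low for Akap12, with a signal of 17.1 against 38.2 to 60.8 in the other untreated mice, which on the log2 scale is a gap of 0.635 of the group's range. Untreated mouse 6 was high for Gad1, with 2064 against 1622 to 1769, which on the log2 scale is a gap of 0.639 of the range.

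In 7 cases every seized wild-type mouse stood on one side of its untreated mean and every seized mouse of another genotype on the other. The size of the difference between the genotypes' responses, wild-type minus the other, was 0.47 for Gad1, 1.26 for Ccni and 0.75 for Canx against beta4 null mice. Against alpha7 +/T mice it was 0.76 for Sars, -1.01 for Clk1, -0.59 for Pnrc2 and -1.07 for Pbrm1. These pairwise differences were not tested. In the test of wild-type against the mean of both mutants, limma gave each of these genes an adjusted p of 0.999. For Pbrm1 and Ccni another probe set had the opposite sign in wild-type mice.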

How the results depend on the processing

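No paired analysis was possible because the labels give the groups no shared replicate numbers. The count of 4 higher and 0 lower became 27 and 8 with array weights, 0 higher with untreated mice of 7 weeks or older, with the B4 prefix or with the LT prefix (1 seized mouse, assumed to vary like the other groups), and 1 higher and 1 lower with untreated mice of 6 weeks; the beta-actin ratio as a covariate gave 1 lower. With 1 mouse left out it ran from 0 to 4 higher, with 0 lower. Against older mice, 0 became 72 higher and 19 lower with array weights, and 3, 6 and 1 higher in the wild-type arrays alone and with array class or the beta-actin ratio. Probe sets called higher by age, 1 in the fit over all arrays, numbered 0 with median centring and 388, 101, 112 and 166 with array weights, wild-type arrays alone, array class and the beta-actin ratio, and 0 to 14 with 1 mouse left out; lower ones, 0 in that fit, numbered 150, 15, 16 and 27, and 0 to 2. Probe sets without overlap numbered, higher and lower, 115 and 200 with median centring, 585 and 567 against older mice, 843 and 669 against those of 6 weeks, 867 and 837 within B4 and 2089 and 1664 within LT, where fewer mice make separation easier, and 220 to 379 and 160 to 273 with 1 mouse left out. The difference between wild-type mice and mutants gave 0 in each setting tried. The sign turned for Cx3cr1 (-0.035, -0.070 and -0.032 with the beta-actin ratio, older mice and B4), Chrne (-0.37 with LT, and -0.13 to 0.56 with 1 mouse left out), Relb (0.047 with mice of 6 weeks, 0.72 with LT, -0.56 to 0.11 with 1 mouse left out), Chrna7 (0.062 with sex, 0.13 with B4, -0.22 to 0.077 likewise), Socs1 (0.14 with the beta-actin ratio, 0.21 with LT, -0.59 to 0.57 likewise) and Jun (0.013 with age, 0.051 with prefix, 0.0035 with the beta-actin ratio, 0.14 with older mice, 0.21 with LT, -0.20 to 0.13 likewise). The causes were not tested. Among the other comparisons of single genes with their settings, 1781 kept direction and side of the threshold, 36 lost a call and 23 gained one. All 36 losses fell on the 4 called genes, since no other gene had a call to lose. Fosb stayed called in 14 of 17 settings and in 7 of 9 fits without 1 mouse. For Atf3 these counts were 13 and 7, for Nr4a1 12 and 6, and for Wdr92 8 and 1.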

Other observations

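Groups that the labels would tie to synaptic signalling lay close to the median of all genes. Of 19 neuropeptide genes 14 were above 0 (median 0.12), and Gal, which encodes galanin, did not overlap between groups (log2 0.38). Of 17 potassium channel genes 9 were above 0 (median 0.00), with Kcnn1, a calcium-activated channel, at 0.53 without overlap. Of 17 genes of synaptic vesicle release 7 were above 0 and 10 below (median -0.03), and Dnm1, the dynamin of vesicle recycling, stood at -0.24 without overlap. No gene of these 3 lists passed the test. Each list held 1 gene without overlap (5.26%, 5.88% and 5.88%), against 4.39% of all genes. Glycolysis genes were above 0 in 12 of 17 cases (median 0.06), and cytosolic ribosomal protein genes in 16 of 23 (median 0.11, and -0.03 against untreated mice of 7 weeks or older).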
